A study of Rattus norvegicus with 12 samples.

Results

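Cholesterol genes were followed in rat Schwann cells grown with macrophages. The set held 27 genes listed by symbol for their known role, of 30957 in the deposited table: 19 enzymes that build cholesterol, 4 genes that sense sterols and switch the pathway, and 4 that move or store cholesterol. Each symbol stood on 1 row, and all 27 genes were among the 12360 with enough counts to test. The genes were chosen with earlier results of these data known.

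Messenger RNA was sequenced in 12 libraries, 3 in each of 4 groups. Schwann cells were grown alone (titled Rsc96, the name of an immortalised rat Schwann cell line, and headed HSC96 in the table), with monocyte-derived macrophages (MDM, headed PBMC), or with tumour-associated macrophages (TAM). The TAM had been induced by supernatant of a human pancreatic cancer line, which was BxPC-3 for the BxTAM and MIA PaCa-2 for the MiaTAM. Lone and MDM cells both carry the treatment label untreated. The design text counts a further kind of TAM, of which the 12 libraries hold no sample. No source used here gives the species of the macrophages, the length of co-culture, or whether the cells touched. Nor do the labels state whether replicate libraries were grown as separate cultures, so p-values reflect the spread between these libraries alone, and that spread may be technical.

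Animal cells make cholesterol from acetyl-CoA. The early enzymes build mevalonate and from it isoprenoid units, which are joined to farnesyl diphosphate. Squalene is then made and closed to lanosterol, and the late enzymes trim and reduce lanosterol to cholesterol. The transcription factor SREBP-2, made from Srebf2, drives most genes of the synthesis pathway. When sterols are scarce, the escort protein SCAP carries SREBP-2 from the endoplasmic reticulum to the Golgi, where it is cut and released, and when sterols are plentiful the INSIG proteins hold the pair back. Schwann cells are known for a high demand for cholesterol, because myelin is rich in it.

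SREBP-2 binds promoters together with the factor NF-Y, whose site is the CCAAT box. RefSeq promoters (build GRCr8) were found for 23 of the 27 genes, and the 250 bases before each start were searched on both strands. The CCAAT box, read as CCAAT or ATTGG, stood in 18 of 23 (78.3%), against 34.3% of 27457 promoters of all genes and 36.0% of 8679 promoters of tested genes. The GC box GGGCGG, bound by Sp1, stood in 20 of 23 (87.0%), against 60.5% of promoters of tested genes. The letters TCACNCCAC, one form of the sterol regulatory element, were in 0 of 23 and in 1.05% of promoters of tested genes, and their shorter core CACNCCAC, which overlaps them, was in 3 of 23 (Acat2, Insig1 and Ebp) and in 4.91%. The median GC content was 63.2% in the 23 promoters and 60.4% in those of tested genes. A match is a stretch of letters, not a measured site. Idi1, Acat2, Hmgcs1 and Insig1 had the largest differences between the TAM co-cultures, and Msmo1 the largest rise of any enzyme from lone cells. Their 5 promoters are therefore given here 5′ to 3′ up to the base before the start. CCAAT boxes of either strand are in capitals.
Msmo1 (chr16:29746863-29747112, plus strand): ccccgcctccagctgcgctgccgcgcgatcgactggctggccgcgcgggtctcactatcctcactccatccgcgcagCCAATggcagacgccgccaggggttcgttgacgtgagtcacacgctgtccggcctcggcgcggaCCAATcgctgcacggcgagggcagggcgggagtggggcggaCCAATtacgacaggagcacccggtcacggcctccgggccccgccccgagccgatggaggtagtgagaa
Insig1 (chr4:8057770-8058019, minus strand): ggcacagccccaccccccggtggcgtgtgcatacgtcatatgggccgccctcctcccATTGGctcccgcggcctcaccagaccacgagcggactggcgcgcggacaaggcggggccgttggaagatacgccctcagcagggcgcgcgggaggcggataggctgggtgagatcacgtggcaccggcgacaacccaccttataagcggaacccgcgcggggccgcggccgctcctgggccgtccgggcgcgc
Hmgcs1 (chr2:53382054-53382303, plus strand): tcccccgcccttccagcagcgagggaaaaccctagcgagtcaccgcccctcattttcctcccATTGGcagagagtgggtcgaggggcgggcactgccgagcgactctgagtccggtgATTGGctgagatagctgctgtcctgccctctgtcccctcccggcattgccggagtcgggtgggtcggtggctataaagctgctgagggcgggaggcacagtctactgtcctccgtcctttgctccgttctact
Idi1 (chr17:66547525-66547774, minus strand): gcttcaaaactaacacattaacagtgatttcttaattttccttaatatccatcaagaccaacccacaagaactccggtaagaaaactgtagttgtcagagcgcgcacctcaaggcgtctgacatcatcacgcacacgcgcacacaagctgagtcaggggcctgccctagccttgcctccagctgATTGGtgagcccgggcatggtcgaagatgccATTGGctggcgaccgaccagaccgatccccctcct
Acat2 (chr1:50100590-50100839, plus strand): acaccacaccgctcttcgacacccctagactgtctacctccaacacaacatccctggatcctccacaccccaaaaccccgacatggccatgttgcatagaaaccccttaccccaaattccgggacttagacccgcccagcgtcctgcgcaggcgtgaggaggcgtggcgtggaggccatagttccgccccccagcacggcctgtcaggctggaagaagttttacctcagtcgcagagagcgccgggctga
The 250 bases before Msmo1 held 3 CCAAT boxes, those before Hmgcs1 and Idi1 held 2 each, that before Insig1 held 1, and that before Acat2 held none.

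Libraries held 16555215 to 21506669 gene counts. Levels of 1 gene across libraries are given as CPM, its count scaled to library size with TMM factors, and levels of different genes are compared as FPKM, which also divide by gene length. After either, ± is the SD of the 3 libraries of a group. Each change is on the log2 scale with its standard error, 3 libraries on either side, and a gene is said to have risen or fallen where the Benjamini-Hochberg adjusted p over all 12360 genes was under 0.05 in edgeR's quasi-likelihood test. Of 10 Schwann cell markers, 5 stayed under 1 CPM in every group, and Cdh19 was at 0 in every library while Sox10 had 1 count in all. The summed level of these markers was 106.3 to 111.8 CPM in lone cells and 104.0 to 106.4 with MDM. It was 104.1 to 109.9 CPM with BxTAM and 114.0 to 117.5 with MiaTAM. Most of it came from Pmp22, at 93.3, 75.3, 85.3 and 89.3 CPM in that order of groups. Erbb3 was at 7.14, 12.9, 10.9 and 15.2 CPM, and Egr2 at 5.88, 12.9, 8.22 and 8.62 CPM. Of 15 macrophage markers, 12 stayed under 1 CPM in every group, and Tyrobp and C1qa were at 0 in every library. Their summed level was 8.37 to 9.72 CPM in lone cells, 13.0 to 14.9 in MDM, 16.8 to 17.9 in BxTAM and 19.0 to 20.4 in MiaTAM co-culture, mostly from Cd14 and Csf1r. Of 6 fibroblast markers, Col1a2, Dcn and Lum were at 0, and the summed level was 128.6 to 131.2 CPM in lone cells, 201.2 to 213.8 with MDM, 167.9 to 190.0 with BxTAM and 183.5 to 194.7 with MiaTAM, with Col1a1 at 16.9 CPM in lone cells and 73.7 with MDM. Of 5 epithelial markers, Epcam and Krt19 were at 0, and the sum was 3.14 to 3.87, 8.69 to 9.85, 3.41 to 4.62 and 4.55 to 4.96 CPM in the same order, mostly from Krt8. The part of these markers in the changes given here was not tested. In such bulk libraries, fewer cells of a type and less RNA per cell cannot be told apart.

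Most genes of the set had their highest mean with BxTAM, a ranking that was not itself tested. By group mean, 19 of 27 were highest in BxTAM co-culture, 4 in lone cells, 3 in MDM and 1 in MiaTAM co-culture. Of all tested genes, 15.1% were highest with BxTAM, 38.2% in lone cells, 24.8% with MDM and 21.9% with MiaTAM. The lowest mean fell in lone cells for 14 of 27, and for 37.2% of all tested genes. Against lone cells, 19 of 27 rose and 3 fell in BxTAM co-culture, while 60.9% of all tested genes were called, 30.0% higher and 30.9% lower. In MDM co-culture 12 rose and 9 fell, against 65.1% of all tested genes called, 32.0% higher and 33.1% lower. Without MDM library 2 these counts were 8 and 9, and with upper-quartile factors 15 and 8, so the balance of higher to lower with MDM turned with 1 library. In MiaTAM co-culture 12 rose and 6 fell, against 65.1% called, 31.4% higher and 33.7% lower. The median change of the set from lone cells was 0.34 with BxTAM, 0.14 with MDM and 0.05 with MiaTAM, and that of all tested genes was 0.001, -0.0061 and -0.0063. These 3 comparisons share the lone cells as controls.

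Between co-cultures, BxTAM was again on the higher side. Against MDM, 16 of 27 rose and 3 fell with BxTAM, while 34.7% of all tested genes were called, 17.4% higher and 17.3% lower, and the median of the set was 0.18. With MiaTAM 11 rose and 5 fell, against 41.0% of all tested genes called, 19.8% higher and 21.1% lower, with a median of 0.08. These 2 comparisons share the MDM libraries. In the direct comparison of MiaTAM with BxTAM, 13 of 27 were lower in MiaTAM co-culture and 1, Scap, was higher, against 24.2% of all tested genes called, 13.3% lower and 11.0% higher, and the median was -0.14. All 10 enzymes called in that comparison were lower with MiaTAM, and the other 9 were not called. Ebp and Pmvk were not called in any of the 6 comparisons.

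Per gene length, the set spanned a wide range of levels. Msmo1 and Npc2 were the most abundant, at 245 ± 9.28 and 230.4 ± 2.66 FPKM in lone cells, and Tm7sf2 the least, at 2.24 ± 0.474 FPKM. Among the enzymes of lone cells, Fdps stood next at 89.6 ± 2.27 FPKM, and Sqle, Cyp51 and Hmgcs1 lay between 40.1 and 47.5 FPKM. Lss, at 6.24 ± 0.144 FPKM, and Hsd17b7, at 5.06 ± 0.172 FPKM, were far below their neighbours in the pathway. These levels rest on the gene length the authors used, which was 7.08 kb for Lss and 1.85 kb for Msmo1 as implied by count and FPKM. For Hsd17b7 it was 3.94 kb, and for its neighbour Ebp 1.05 kb. By CPM in lone cells, which leaves length out, Hsd17b7 (19.8) was above Ebp (15.1) and below Nsdhl (43.3).

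**Figure D1:**
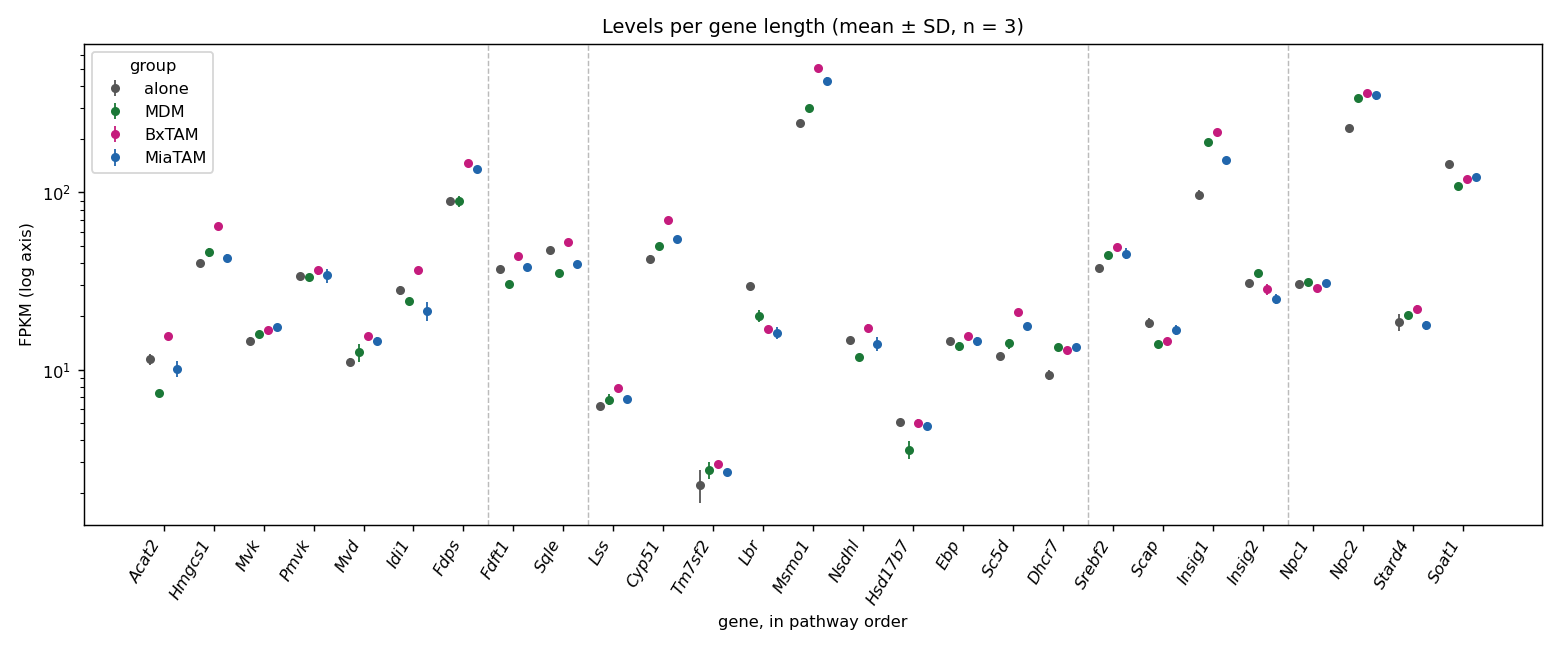
FPKM of the 27 genes in pathway order on a log axis, as mean ± SD of 3 libraries per group; dashed lines part early enzymes, squalene enzymes, late enzymes, regulators and transport genes. Levels run from 2.24 FPKM (Tm7sf2, lone cells) to 501 FPKM (Msmo1, BxTAM), and BxTAM is the highest group for most enzymes.

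Of the 7 early enzymes, 6 rose and none fell with BxTAM against lone cells, 4 rose and 1 fell with MiaTAM, and 2 rose and 2 fell with MDM. The all-gene shares are 30.0% higher and 30.9% lower with BxTAM, 31.4% and 33.7% with MiaTAM, and 32.0% and 33.1% with MDM, so the MDM counts lie near the background. Acat2, the cytosolic thiolase that joins acetyl-CoA units at the entry of the pathway, had the widest swing between co-cultures. It stood at 26.0, 27.7 and 24.2 CPM in lone cells, 17.6, 16.6 and 16.8 with MDM, 37.0, 34.9 and 34.5 with BxTAM, and 25.6, 22.0 and 21.5 with MiaTAM. The MDM libraries were the lowest and the BxTAM libraries the highest, with no overlap with another group, while MiaTAM and lone cells overlapped. Acat2 fell in MDM co-culture (-0.61 ± 0.08, adjusted p = 7.0e-07), and in BxTAM co-culture it was 2.09-fold the MDM level (1.06 ± 0.08, adjusted p = 9.2e-10). It was lower with MiaTAM than with BxTAM (-0.62 ± 0.07, adjusted p = 1.3e-05) and yet above MDM (0.44 ± 0.08, adjusted p = 1.4e-04).

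Hmgcs1, the cytosolic HMG-CoA synthase, measured 128, 127 and 129.5 CPM in lone cells, 157, 150.0 and 140.0 with MDM, 203, 211 and 209.5 with BxTAM, and 142, 130.4 and 140.3 with MiaTAM. The BxTAM libraries stood alone at the top, and those of MDM and MiaTAM overlapped. Hmgcs1 rose 1.62-fold with BxTAM against lone cells (0.70 ± 0.04, adjusted p = 2.9e-11) and 1.16-fold with MDM. It was 1.51-fold higher with BxTAM than with MiaTAM (adjusted p = 3.9e-08). With MiaTAM its difference from lone cells was 0.10 ± 0.04 (adjusted p = 0.0476), which lost the call when any 1 of 8 libraries was left out (alone 1 and 2, MDM 2, BxTAM 1, 2 and 3, MiaTAM 1 and 3), with adjusted p from 0.0515 to 0.166.

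Idi1, which isomerises the isoprenoid unit, moved in opposite directions with the 2 kinds of TAM. Its levels were 77.5, 73.9 and 82.6 CPM in lone cells, 69.5, 69.5 and 67.7 with MDM, 97.7, 102 and 107 with BxTAM, and 66.1, 51.6 and 62.6 with MiaTAM. Every BxTAM library lay above every other library, and every MiaTAM library below. From lone cells Idi1 rose by 0.39 ± 0.06 with BxTAM (adjusted p = 2.4e-05) and fell by 0.37 on the log2 scale with MiaTAM (SE 0.07, adjusted p = 5.9e-05). It was 1.70-fold higher with BxTAM than with MiaTAM (adjusted p = 3.4e-07), the largest difference of the set between these groups. The differences of MDM from lone cells (-0.18 ± 0.07) and of MiaTAM from MDM (-0.19 ± 0.07) were small calls. The first was lost without alone library 3 or MDM library 3 (adjusted p = 0.122 and 0.0670), and with upper-quartile factors. The second was lost without MDM library 1 or 2 or MiaTAM library 2 (adjusted p from 0.0681 to 0.175), and under 2 of 8 other settings. MiaTAM library 2 was the lowest of all. The Idi1 locus (chromosome 17, 57976268 to 57984036, Rnor_6.0) overlaps that of Wdr37, which had 5465 counts to 17065 of Idi1. Whether counting used strand is not stated, so their reads may be mixed.

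Fdps, the farnesyl diphosphate synthase, separated both TAM co-cultures from the rest. It stood at 315, 327 and 328 CPM in lone cells, 301, 336 and 344 with MDM, 550.3, 526 and 522 with BxTAM, and 487, 509 and 480.0 with MiaTAM. Lone cells and MDM overlapped, and all 6 TAM libraries were higher. Fdps rose with BxTAM (0.70 ± 0.05 against MDM, adjusted p = 2.4e-10) and with MiaTAM (0.59 ± 0.05, adjusted p = 3.2e-09). The difference between the TAM co-cultures was -0.12 ± 0.05 (adjusted p = 0.0696), although their libraries did not overlap.

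Mvd, Mvk and Pmvk complete the early enzymes. Mvd, which decarboxylates mevalonate diphosphate, was at 18.6 ± 1.02 CPM in lone cells, 21.5 ± 2.49 with MDM, 26.1 ± 1.03 with BxTAM and 24.8 ± 1.02 with MiaTAM, and it rose against lone cells with BxTAM (0.49 ± 0.08, adjusted p = 2.0e-05) and MiaTAM (0.41 ± 0.08, adjusted p = 1.5e-04). Its MDM libraries were spread from 18.9 to 23.9 CPM. Its call against lone cells in MDM was lost without alone library 1 or MDM library 2 or 3 (adjusted p from 0.0559 to 0.215), that of BxTAM against MDM without MDM library 1 (0.0589), and that of MiaTAM against MDM without any 1 of 8 libraries, all but alone 1, 2 and 3 and MDM 3 (from 0.0511 to 0.258). Mvk, the mevalonate kinase, went from 17.2 ± 0.798 CPM in lone cells to 20.0 ± 0.785 with BxTAM and 20.6 ± 0.957 with MiaTAM (0.22 ± 0.07 and 0.27 ± 0.07, adjusted p = 0.0111 and 0.00253). Pmvk, the next kinase, lay between 34.7 and 41.5 CPM in all 12 libraries.

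The 2 squalene enzymes fell with MDM and were higher with BxTAM. Sqle, the squalene epoxidase and a rate-limiting step of the pathway, was at 127, 127 and 132 CPM in lone cells, 95.1, 99.0 and 96.8 with MDM, 142, 143 and 142 with BxTAM, and 108, 108 and 104 with MiaTAM. The 4 groups did not overlap anywhere. Sqle fell with MDM (-0.41 ± 0.04, adjusted p = 8.5e-09) and MiaTAM (-0.27 ± 0.04, adjusted p = 3.4e-06) against lone cells and rose with BxTAM (0.15 ± 0.04, adjusted p = 0.00158). Fdft1, the squalene synthase, was at 116 ± 4.64 CPM in lone cells, 96.6 ± 4.42 with MDM, 137 ± 6.57 with BxTAM and 119.9 ± 2.29 with MiaTAM. It fell with MDM (-0.27 ± 0.05, adjusted p = 4.0e-05), rose with BxTAM (0.24 ± 0.05, adjusted p = 9.4e-05), and with MiaTAM it did not pass (0.05 ± 0.05, adjusted p = 0.374).

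**Figure D2:**
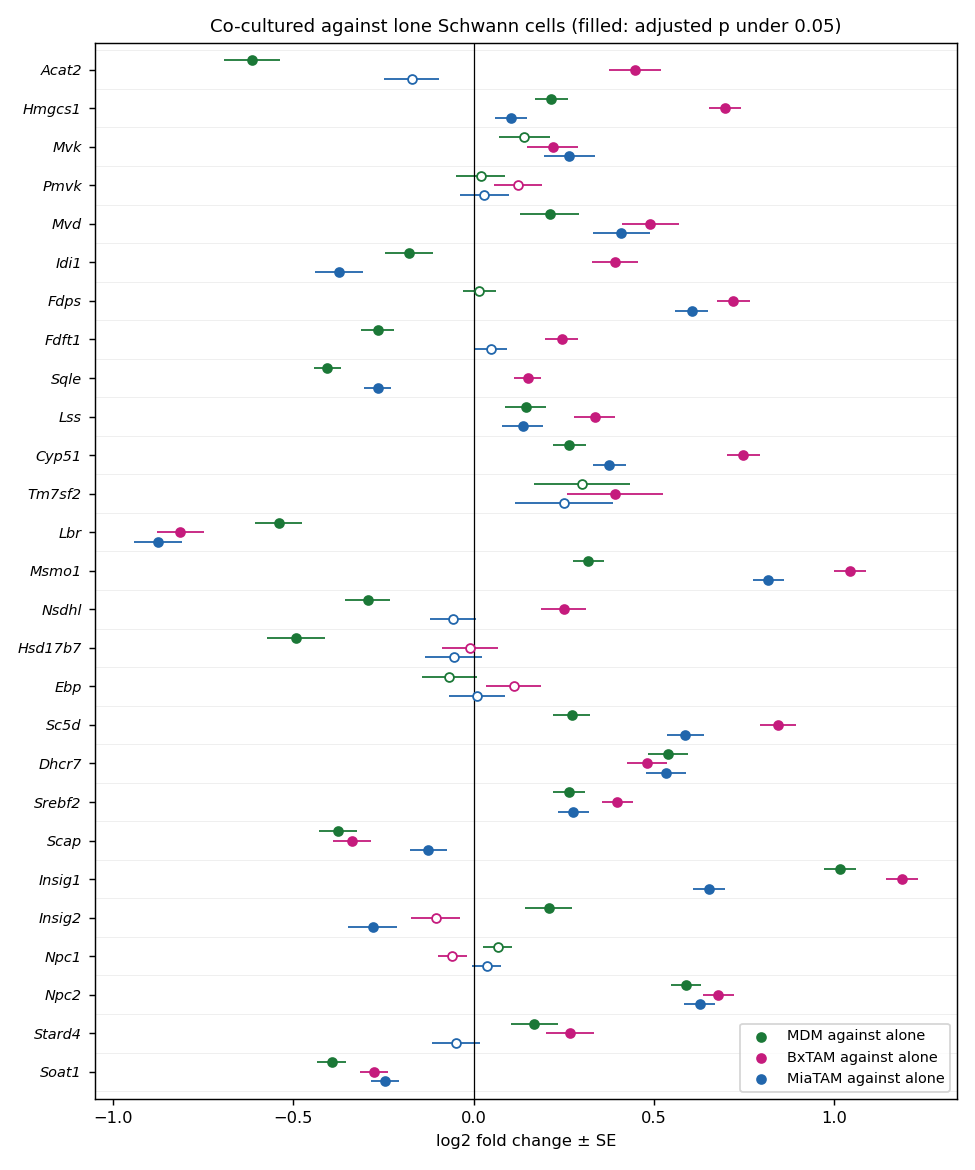
Log2 fold change ± SE of each gene in MDM, BxTAM and MiaTAM co-culture against lone Schwann cells (3 libraries against 3), with filled points where the adjusted p was under 0.05. Msmo1 and Insig1 reach the largest rises (1.04 and 1.19 with BxTAM), Lbr falls in every co-culture, and Acat2 and Idi1 lie on different sides of 0.

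Among the 10 late enzymes, 7 rose and 1 fell with BxTAM against lone cells, 5 rose and 1 fell with MiaTAM, and 5 rose and 3 fell with MDM. Beside them stand all-gene shares of 30.0% higher and 30.9% lower, 31.4% and 33.7%, and 32.0% and 33.1%, and the 3 that fell with MDM are near that background. Msmo1, the sterol C4 demethylating oxidase, made the largest rise of any enzyme from lone cells. It stood at 454, 429 and 466 CPM in lone cells, 565, 546 and 571 with MDM, 916, 904 and 961 with BxTAM, and 824, 748 and 804 with MiaTAM. The 4 groups did not overlap. Msmo1 was 2.06-fold higher with BxTAM than in lone cells (adjusted p = 3.4e-14), 1.76-fold with MiaTAM and 1.25-fold with MDM, and it was lower with MiaTAM than with BxTAM (-0.23 ± 0.04, adjusted p = 9.3e-04).

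Sc5d and Cyp51 followed the same order. Sc5d, the sterol C5 desaturase, was at 56.9, 55.0 and 60.1 CPM in lone cells, 70.8, 64.7 and 71.9 with MDM, 105, 98.4 and 105 with BxTAM, and 86.3, 83.3 and 88.6 with MiaTAM, without overlap between groups. It rose by 0.84 ± 0.05 with BxTAM (adjusted p = 9.8e-12), by 0.59 ± 0.05 with MiaTAM and by 0.27 ± 0.05 with MDM. Cyp51, the lanosterol demethylase, was at 134, 137 and 148 CPM in lone cells, 169, 169.6 and 167 with MDM, 242, 229 and 234 with BxTAM, and 176, 175 and 194 with MiaTAM. It rose 1.68-fold with BxTAM (adjusted p = 1.5e-11), and with MiaTAM it stayed 0.37 below BxTAM on the log2 scale (-0.37 ± 0.05, adjusted p = 1.7e-05). Its difference between MiaTAM and MDM did not pass (0.11 ± 0.05, adjusted p = 0.0570).

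Nsdhl and Hsd17b7, which act with Msmo1 in removing the C4 methyl groups, fell with MDM where Msmo1 rose. Nsdhl was at 43.7, 43.0 and 43.3 CPM in lone cells, 34.4, 34.9 and 36.7 with MDM, 54.2, 49.7 and 50.6 with BxTAM, and 44.8, 37.7 and 42.2 with MiaTAM. It changed by -0.29 ± 0.06 with MDM (adjusted p = 4.0e-04) and by 0.25 ± 0.06 with BxTAM (adjusted p = 0.00154), and its MiaTAM libraries spanned the level of lone cells. Hsd17b7 was at 19.8 ± 0.598 CPM in lone cells, 14.0 ± 1.53 with MDM, 19.6 ± 1.13 with BxTAM and 19.0 ± 0.931 with MiaTAM. It fell with MDM against lone cells (-0.49 ± 0.08, adjusted p = 2.2e-05), and it was higher than MDM with BxTAM (0.48 ± 0.08, adjusted p = 1.1e-04) and with MiaTAM (0.44 ± 0.08, adjusted p = 2.4e-04).

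Dhcr7, which makes cholesterol from 7-dehydrocholesterol in the closing step of the pathway, rose to a like level in all co-cultures. It was at 37.3, 41.8 and 38.8 CPM in lone cells, 54.8, 57.3 and 58.9 with MDM, 54.1, 53.0 and 57.3 with BxTAM, and 55.4, 58.6 and 56.7 with MiaTAM. Its changes were 0.54 ± 0.06, 0.48 ± 0.06 and 0.53 ± 0.06 (adjusted p = 3.7e-08, 2.5e-07 and 4.7e-08), and the co-cultures overlapped one another. Lbr, the lamin B receptor of the inner nuclear membrane, which also has sterol C14 reductase activity, fell in every co-culture. It stood at 56.8, 54.5 and 53.9 CPM in lone cells, 37.2, 35.6 and 40.7 with MDM, 31.8, 31.5 and 30.8 with BxTAM, and 30.4, 27.2 and 32.3 with MiaTAM. Its changes from lone cells were -0.54 ± 0.06, -0.81 ± 0.07 and -0.88 ± 0.07 (adjusted p = 3.3e-07, 1.3e-09 and 3.8e-10), and it was also lower than MDM with BxTAM (-0.27 ± 0.07) and MiaTAM (-0.34 ± 0.07).

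Tm7sf2, Lss and Ebp complete the late enzymes. Tm7sf2, the other C14 reductase, ran from 4.10 to 6.92 CPM. Its difference of BxTAM from lone cells (0.39 ± 0.13, adjusted p = 0.0150) was lost without alone library 3 (0.0900), and its locus (chromosome 1, 221425987 to 221431713, Rnor_6.0) overlaps that of Vps51, which had 14156 counts to 1325 of Tm7sf2, so its counts are uncertain. Lss, the lanosterol synthase, rose with BxTAM from 43.9 ± 1.03 to 55.3 ± 1.70 CPM (0.34 ± 0.06, adjusted p = 3.2e-05). Its other 4 calls were each lost without at least 1 library: MDM against lone cells without alone 2 or 3 or MDM 2 or 3 (adjusted p from 0.0627 to 0.194), MiaTAM against lone cells without alone 2 or 3, MDM 2 or MiaTAM 2 or 3 (from 0.0506 to 0.110), BxTAM against MDM without MDM 1 or BxTAM 2 (0.0761 and 0.0504), and MiaTAM against BxTAM without BxTAM 2 or 3 (0.0603 and 0.0521). Ebp, the sterol isomerase, lay between 13.3 and 16.9 CPM.

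**Figure D3:**
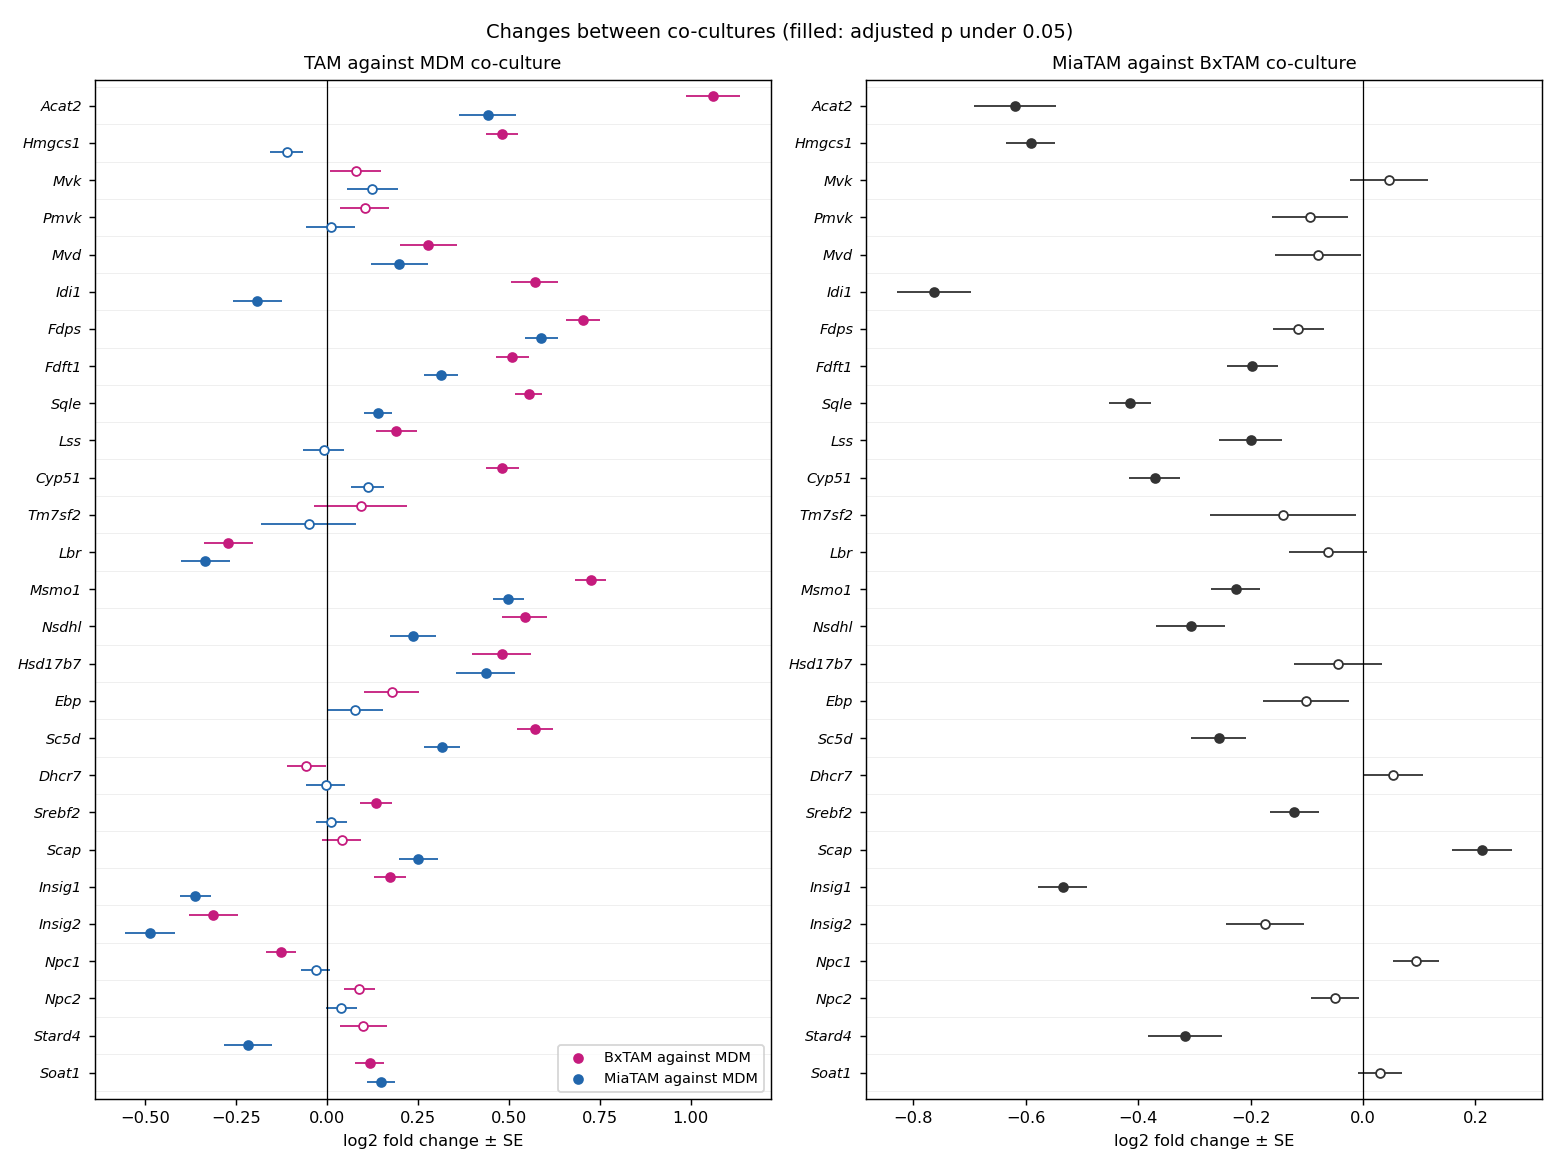
Log2 fold change ± SE of each gene in BxTAM and MiaTAM against MDM co-culture (left) and in MiaTAM against BxTAM co-culture (right), 3 libraries against 3, with filled points where the adjusted p was under 0.05. Acat2 shows the largest rise over MDM (1.06 with BxTAM), Insig1 and Idi1 lie on opposite sides of 0 on the left, and on the right Idi1, Acat2 and Hmgcs1 are farthest below 0.

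The regulators did not move as 1 group. Insig1, itself a target of SREBP-2 whose protein retains SCAP, had the largest rise from lone cells of all 27 genes. Its levels were 228, 223 and 249 CPM in lone cells, 477, 484 and 455 with MDM, 535, 519.9 and 540.2 with BxTAM, and 380.2, 352 and 368 with MiaTAM. The 4 groups did not overlap, with BxTAM the highest and MiaTAM the lowest of the co-cultures. Insig1 rose 2.02-fold with MDM (1.02 ± 0.04, adjusted p = 8.7e-14), 2.28-fold with BxTAM (1.19 ± 0.04, adjusted p = 5.4e-15) and 1.57-fold with MiaTAM (0.65 ± 0.04, adjusted p = 7.2e-11). Against MDM it was higher with BxTAM (0.17 ± 0.04, adjusted p = 0.00412) and lower with MiaTAM (-0.36 ± 0.04, adjusted p = 1.6e-06). A row described as similar to Insig1, LOC688922, held 1410 counts over all libraries, against 88363 for Insig1. The counting options are not stated, so how reads shared by these rows were treated is not known.

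Insig2, whose protein does the same task but whose gene is not known as a strong SREBP-2 target, took another course. It was at 31.1, 30.5 and 29.2 CPM in lone cells, 34.3, 36.7 and 33.9 with MDM, 26.5, 27.6 and 30.3 with BxTAM, and 26.6, 24.4 and 23.7 with MiaTAM. It was highest with MDM, and the libraries of the TAM co-cultures overlapped. It fell from lone cells with MiaTAM (-0.28 ± 0.07, adjusted p = 0.00137) and was lower than MDM with BxTAM (-0.31 ± 0.07, adjusted p = 0.00110) and MiaTAM (-0.49 ± 0.07, adjusted p = 9.5e-06). Its rise with MDM (0.21 ± 0.07, adjusted p = 0.00971) was lost without MDM library 2 (0.0511). Per gene length, the ratio of Insig1 to Insig2 was 3.00, 3.00 and 3.49 in lone cells, 5.69, 5.40 and 5.50 with MDM, 8.28, 7.71 and 7.29 with BxTAM, and 5.86, 5.91 and 6.35 with MiaTAM. The ratio was lowest in lone cells and highest with BxTAM, and no 2 groups overlapped.

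Srebf2 and Scap moved apart. Srebf2 was at 230.3, 228 and 226 CPM in lone cells, 277, 281 and 265 with MDM, 305, 292 and 305 with BxTAM, and 268, 298 and 263 with MiaTAM. It rose in all 3 co-cultures, by 0.26 ± 0.04, 0.40 ± 0.04 and 0.28 ± 0.04 (adjusted p = 2.3e-05, 1.1e-07 and 1.4e-05). Its difference of BxTAM from MDM (0.13 ± 0.04, adjusted p = 0.0207) was lost without MDM library 3 or BxTAM library 1 or 3 (from 0.0651 to 0.0932). That of MiaTAM from BxTAM (-0.12 ± 0.04, adjusted p = 0.0454) was lost without any 1 of 10 libraries, all but MDM 3 and MiaTAM 2 (from 0.0506 to 0.192). Scap was at 83.8, 92.5 and 83.5 CPM in lone cells, 65.1, 65.5 and 69.5 with MDM, 69.7, 70.5 and 65.7 with BxTAM, and 78.3, 84.4 and 75.8 with MiaTAM. It fell with MDM (-0.38 ± 0.05, adjusted p = 2.8e-06) and BxTAM (-0.34 ± 0.05, adjusted p = 1.4e-05), and it was higher with MiaTAM than with BxTAM (0.21 ± 0.05, adjusted p = 0.00701). Its difference of MiaTAM from lone cells (-0.13 ± 0.05, adjusted p = 0.0414) was lost without alone library 1 or 2, BxTAM 1 or MiaTAM 1 or 3 (from 0.0503 to 0.355), and under 7 of 8 other settings.

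Of the transport genes, Npc2 rose in every co-culture. Npc2 encodes the soluble lysosomal protein that hands cholesterol to the membrane protein NPC1 for export. It stood at 284, 287 and 290.4 CPM in lone cells, 435, 441 and 419 with MDM, 466, 476 and 436 with BxTAM, and 429, 469 and 433 with MiaTAM. All co-culture libraries were above all libraries of lone cells, and the co-cultures overlapped. The rises were 0.59 ± 0.04, 0.68 ± 0.04 and 0.63 ± 0.04 (adjusted p = 1.9e-10, 2.7e-11 and 7.6e-11), and no difference between co-cultures passed (adjusted p from 0.113 to 0.497).

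Npc1 lay between 143 and 166 CPM in all 12 libraries and did not pass against lone cells in any co-culture (adjusted p from 0.147 to 0.450). Its difference of BxTAM from MDM (-0.13 ± 0.04, adjusted p = 0.0196) was lost without MDM library 1 or 2 or BxTAM library 2 (from 0.0512 to 0.111). Its locus (chromosome 18, 3616878 to 3662656, Rnor_6.0) overlaps that of RGD1311805, so its counts are uncertain. Soat1, which esterifies cholesterol for storage, fell in every co-culture. It was at 287, 280.2 and 276 CPM in lone cells, 214, 215 and 214 with MDM, 238, 225 and 233 with BxTAM, and 224, 243 and 245 with MiaTAM. Its changes from lone cells were -0.39 ± 0.04, -0.28 ± 0.04 and -0.25 ± 0.04 (adjusted p = 2.5e-08, 4.0e-06 and 1.5e-05). It was higher than MDM with MiaTAM (0.15 ± 0.04, adjusted p = 0.00510), and the like difference with BxTAM (0.12 ± 0.04, adjusted p = 0.0262) was lost without any 1 of the MDM libraries or BxTAM library 1 or 3 (from 0.0595 to 0.114).

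Stard4, a sterol carrier of the cytosol and a known SREBP-2 target, was at 55.5, 45.8 and 46.4 CPM in lone cells, 56.5, 55.6 and 53.7 with MDM, 62.0, 56.3 and 59.1 with BxTAM, and 48.4, 49.2 and 44.9 with MiaTAM. Every MiaTAM library was below every MDM and BxTAM library. It rose with BxTAM against lone cells (0.27 ± 0.07, adjusted p = 0.00146) and was lower with MiaTAM than with BxTAM (-0.32 ± 0.07, adjusted p = 0.00184). The difference of MDM from lone cells (0.17 ± 0.07) was lost without alone library 2 or 3 or MDM library 1 or 2 (adjusted p from 0.0684 to 0.139), and that of MiaTAM from MDM (-0.22 ± 0.07) without MiaTAM library 3 (0.0638).

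**Figure D4:**
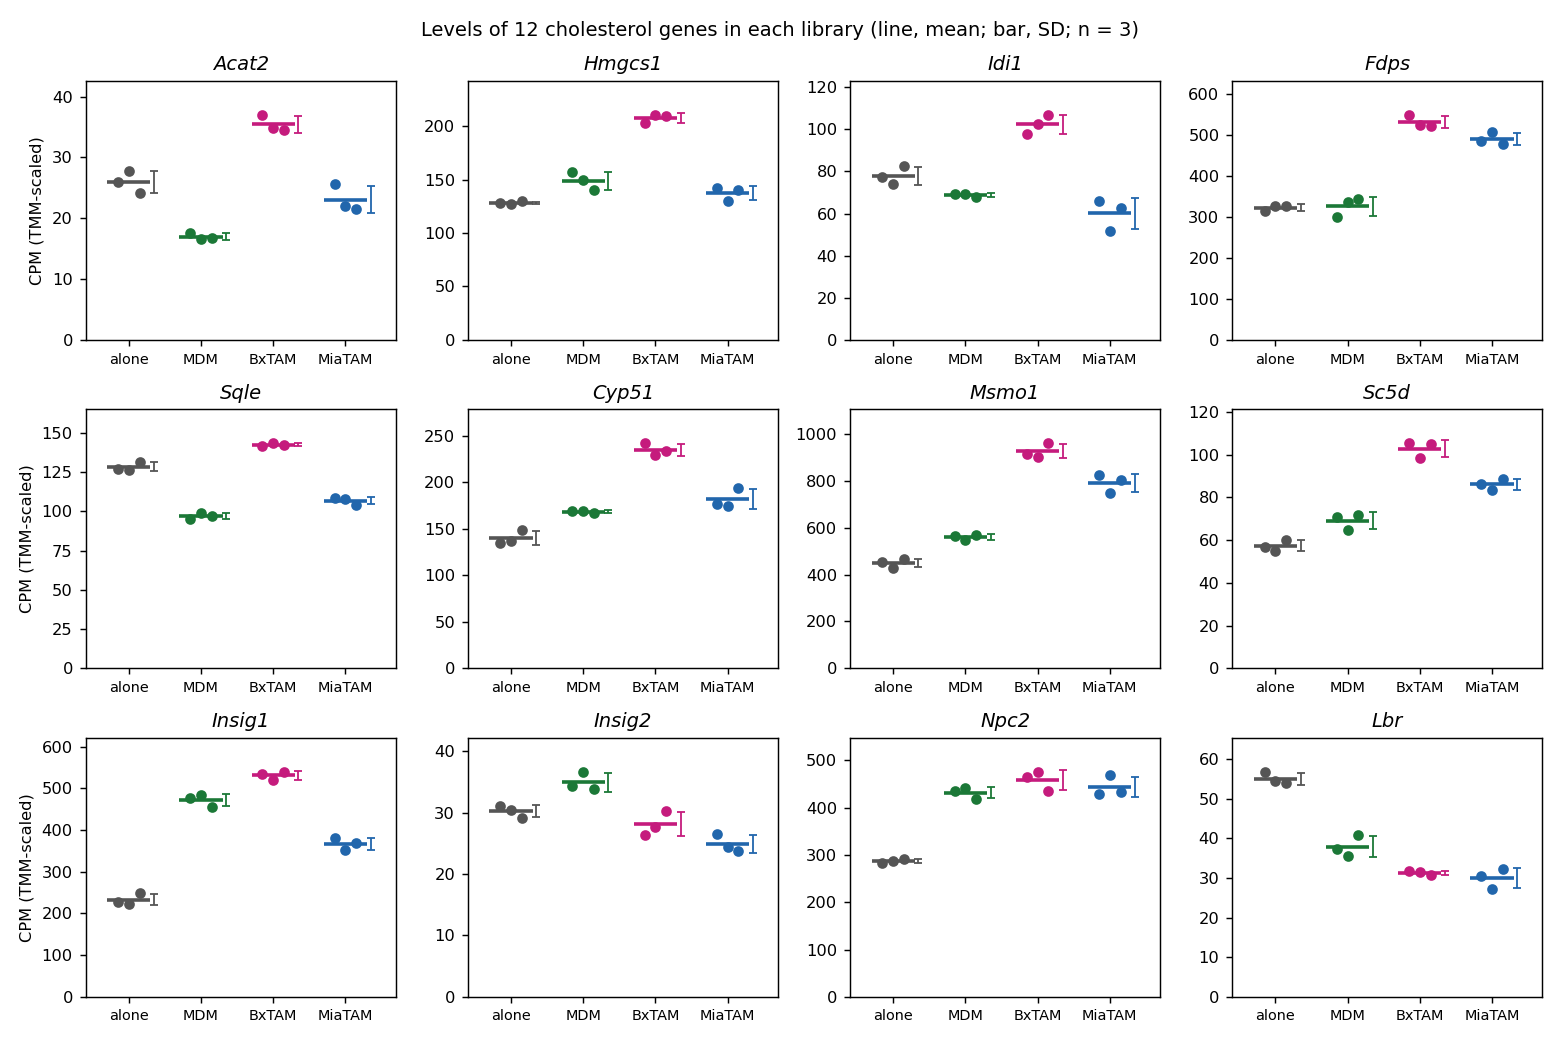
CPM of 12 of the genes in each library by group, with a line at the mean and a bar of 1 SD (n = 3), each axis starting at 0. Acat2, Hmgcs1 and Idi1 are highest with BxTAM and lower again with MiaTAM, Fdps and Msmo1 are high in both TAM groups, Npc2 is higher in all co-cultures than in lone cells, and Lbr is lower in all of them.

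Neighbouring branches of the pathway were counted beside the set from lists written by function, also with earlier results of these data known. In the list of acetyl-CoA and fatty acid genes under SREBP control, 10 of 14 tested genes rose and 2 fell against MDM with BxTAM, where 17.4% of all tested genes rose and 17.3% fell. With MiaTAM the counts were also 10 and 2, beside 19.8% and 21.1%. Acss2, the cytosolic acetyl-CoA synthetase, rose by 0.74 ± 0.04 and 0.56 ± 0.04, and Fasn, the fatty acid synthase, by 0.59 ± 0.05 and 0.61 ± 0.05. The median of this list was 0.27 with BxTAM and 0.19 with MiaTAM, against -0.0019 and -0.0089 for all tested genes. Against lone cells 7 rose and 2 fell with MDM, 10 and 0 with BxTAM, and 9 and 0 with MiaTAM, beside all-gene shares of 32.0% and 33.1%, 30.0% and 30.9%, and 31.4% and 33.7%. Between the TAM co-cultures, 0 of its 14 genes were higher and 4 lower with MiaTAM, beside 11.0% and 13.3% of all tested genes. Among the 4 was Elovl6, a fatty acid elongase (-0.53 ± 0.11).

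The isoprenoid branch, which leaves the pathway after Fdps, lay near the background. Against MDM, 2 of 14 tested genes rose and 2 fell with BxTAM (all genes 17.4% and 17.3%), and 2 rose and 3 fell with MiaTAM (19.8% and 21.1%), with medians of -0.055 and 0.04. Ggps1, the geranylgeranyl diphosphate synthase, was among the 3 (-0.39 ± 0.06). Against lone cells 6 rose and 3 fell with MDM (all genes 32.0% and 33.1%), 5 and 3 with BxTAM (30.0% and 30.9%), and 4 and 3 with MiaTAM (31.4% and 33.7%).

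Among genes of sterol sensing and SREBP processing, 3 of 15 rose and 4 fell with BxTAM against MDM, near the 17.4% and 17.3% of all tested genes. With MiaTAM 2 rose and 8 fell, beside 19.8% and 21.1%. Mbtps1, which makes the first cut in SREBP-2, fell with BxTAM (-0.28 ± 0.04) and MiaTAM (-0.25 ± 0.04). Sp1, which binds the GC box, fell with both (-0.28 ± 0.04 and -0.43 ± 0.04). Nfya, the DNA-binding subunit of NF-Y, also fell with both against MDM (-0.16 ± 0.05 and -0.43 ± 0.05). Against lone cells 5 rose and 5 fell with MDM (all genes 32.0% and 33.1%), 2 and 4 with BxTAM (30.0% and 30.9%), and 3 and 8 with MiaTAM (31.4% and 33.7%). Sp1 and Nfya both rose over lone cells with MDM (0.25 ± 0.04 and 0.15 ± 0.05). With BxTAM neither was called against lone cells (-0.03 ± 0.04 and -0.01 ± 0.05). With MiaTAM both fell from lone cells (-0.175 ± 0.04 and -0.27 ± 0.05).

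Among genes of sterol efflux and oxysterols, 5 of 9 tested genes rose and 1 fell with MDM against lone cells (all genes 32.0% and 33.1%), 4 rose and none fell with BxTAM (30.0% and 30.9%), and 5 rose and 1 fell with MiaTAM (31.4% and 33.7%). Against MDM, 1 rose and 1 fell with BxTAM (17.4% and 17.3%), and 2 rose and 1 fell with MiaTAM (19.8% and 21.1%). Abcg1, a sterol exporter, rose by 0.33 ± 0.04 with BxTAM and 0.53 ± 0.04 with MiaTAM against lone cells, and it was higher with MiaTAM than with BxTAM (0.20 ± 0.04, adjusted p = 0.00244).

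Of 19 tested genes of sterol transfer, lipoprotein uptake and cholesterol ester handling, 11 rose and 4 fell with MDM against lone cells (all genes 32.0% and 33.1%), 10 and 2 with BxTAM (30.0% and 30.9%), and 8 and 2 with MiaTAM (31.4% and 33.7%). Against MDM, 5 rose and 3 fell with BxTAM (17.4% and 17.3%), and 6 rose and 5 fell with MiaTAM (19.8% and 21.1%). Gramd1a, a carrier of cholesterol from the plasma membrane, rose by 0.77 ± 0.06 with MDM, 0.65 ± 0.06 with BxTAM and 0.83 ± 0.06 with MiaTAM against lone cells. Cav1, the caveolar coat protein that binds cholesterol, changed by -0.90 ± 0.04, -0.55 ± 0.03 and -0.65 ± 0.04 in the same order.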

How the data were processed

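Raw gene counts and FPKM were deposited for every library, per the file headers. Dividing the authors' FPKM into the counts gave 1 length per gene, with a spread of at most 0.0944% between libraries over 13016 genes. CASAVA, HISAT2, StringTie 1.3.0 and Rnor_6.0 are named in the submitters' processing notes. No source used here states the counting options or the annotation release. The kit was a stranded one for mRNA, per the labels' protocols.

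Counts were analysed in edgeR 4.0.16 under R 4.3.3. Genes kept by filterByExpr (12360) were scaled by TMM (factors 0.98 to 1.01) and fitted by quasi-likelihood over all 12 libraries together, with group means as the only terms. Benjamini-Hochberg adjustment ran over all genes tested, with a threshold of 0.05. The standard error is the log2 change over the square root of F. No pair of replicates agreed within sampling noise (chi-square per degree of freedom at least 2.37). Alternatives were DESeq2 size factors, upper-quartile factors, the DESeq2 1.42.0 Wald test, no count filter, only the compared groups, a replicate block, limma-trend (limma 3.58.1) on log2(FPKM + 1) and log2(FPKM + 0.1), and each library left out. All 27 members are accounted for. From the other lists up to 2 called genes per list and comparison with the smallest p may be named. A gene named for 1 comparison may also be given for others, where its p need not be among the smallest. Members and lists were chosen with earlier results of these data known.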

Additional observations from a re-analysis of the deposited data

Results flagged for a closer look

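Genes were picked out here where BxTAM and MiaTAM differed from MDM co-culture in opposite directions, each as a call, and where the TAM co-cultures also differed from each other in the direct test. Insig1 met this, with 0.17 for BxTAM and -0.36 for MiaTAM against MDM and a difference of -0.53 ± 0.04 between MiaTAM and BxTAM (adjusted p = 1.5e-07, edgeR), and its libraries did not overlap between these groups. Idi1 met it too, with 0.57 and -0.19 against MDM and a difference of -0.76 ± 0.07 (adjusted p = 3.4e-07, edgeR). For Idi1 the call of MiaTAM against MDM was lost without MDM library 1 or 2 or MiaTAM library 2 (adjusted p from 0.0681 to 0.175). It was also lost under limma-trend with either pseudocount. The comparisons against MDM share the MDM libraries.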

How the results depend on the processing

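Of 162 changes (27 genes in 6 comparisons), 110 were called, and 0 of these 110 changed sign in any of 20 alternatives. Under the 8 alternatives that kept all libraries 11 calls were lost and 12 gained in at least 1. Against lone cells, the 11 lost included Idi1, Lss, Mvd and Stard4 with MDM, and Hmgcs1, Lss and Scap with MiaTAM. The rest were Idi1 and Mvd for MiaTAM against MDM, Npc1 for BxTAM against MDM, and Srebf2 for MiaTAM against BxTAM. With 1 library left out 19 were lost and 8 gained at least once. The counts of genes called stayed within 1.5 times the reported ones, apart from genes higher with MiaTAM than with BxTAM, which numbered 2 in place of 1 with upper-quartile factors. With 1 library left out, the number for MDM against lone cells ran from 8 to 12 higher and from 8 to 9 lower.

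Signs changed for uncalled values near 0. Under limma-trend with either pseudocount, Pmvk and Fdps for MDM against lone cells and Ebp for MiaTAM against lone cells were -0.01, and Lss for MiaTAM against MDM was 0.01. With upper-quartile factors Hsd17b7 was 0.05 for BxTAM and 0.02 for MiaTAM against lone cells, Nsdhl and Stard4 were 0.02 for MiaTAM against lone cells, and Lss was 0.01 for MiaTAM against MDM. With 1 library left out, the range was -0.02 to 0.07 for Fdps with MDM, -0.05 to 0.03 for Hsd17b7 with BxTAM, and with MiaTAM -0.04 to 0.08 for Pmvk, -0.11 to 0.01 for Nsdhl, -0.05 to 0.04 for Ebp and -0.09 to 0.06 for Stard4, all against lone cells. For MiaTAM against MDM it was -0.06 to 0.06 for Pmvk, -0.06 to 0.04 for Lss, -0.12 to 0.04 for Tm7sf2 and -0.04 to 0.04 for Srebf2. The cause was not tested.

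Deviations of same-numbered libraries from their group means correlated between -0.127 and 0.0890. Of 12 libraries, 2 correlated best with their own number. Such weak correlation cannot show whether same-numbered libraries were grown or processed together. With the replicate block, 18 members were called for MiaTAM against lone cells, as without it: Hmgcs1 lost its call (adjusted p = 0.0552) and Acat2 gained one.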
